A study of Mus musculus with 6 samples.

Results

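Tetranectin and the genes of plasminogen activation were followed in lenses of fibronectin conditional knockout and wild-type mice. Plasminogen is a blood-borne zymogen that tissue-type and urokinase-type activators cut into plasmin, a serine protease that degrades fibrin and matrix proteins such as fibronectin. Serpins oppose this at the level of the activators and of plasmin itself. Tetranectin, a secreted C-type lectin, binds a kringle domain of plasminogen and favours its activation on surfaces and in matrix. The members were chosen by symbol and number 9 of the 41449 rows of the expression table: the lectins Clec3b (tetranectin) and Clec3a, the activators Plat and Plau, the urokinase receptor Plaur, plasminogen itself (Plg), and the serpins Serpine2, Serpinf1 and Serpinf2.

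RNA sequencing covered 3 libraries from fibronectin conditional knockout (FNcKO) lenses and 3 from wild-type (WT) lenses, each made from 2 lenses of mice aged 2 months. FNcKO mice were of mixed background (C57BL/6, 129, FVB/N) and WT mice were C57BL/6, so genotype and strain background cannot be told apart in any comparison. The promoter that drove the deletion is not given in the sources used here. Levels are given in FPKM, the fragment number scaled to transcript length and to library size, as deposited by the authors. WT replicate 2 has no value in 3578 rows (8.63%), Clec3b among them, so Clec3b rests on 2 WT libraries. The group of genes was assembled with the FNcKO and WT values of Clec3b already known, and all differences of members between genotypes are therefore a description with no test.

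Clec3b was the member with the highest level in FNcKO lenses and the only one whose genotypes did not overlap, which also held for 25.6% of all genes tested. It stood at 12.04, 16.3 and 17.1 FPKM in FNcKO replicates 1 to 3, against 0.858 and 0.750 FPKM in WT replicates 1 and 3. All 3 FNcKO libraries were high, and the lowest of them lay far above the higher WT library. The means were 15.1 ± 2.71 FPKM in FNcKO (SD, n = 3) and 0.804 ± 0.0762 FPKM in WT (SD, n = 2), which is 18.8-fold higher in FNcKO. By mean level Clec3b held place 1812 of the 41449 rows in FNcKO lenses and place 10898 in WT lenses. By fold of means, each over the libraries with a value, it held place 6 of the 9993 tested genes with a mean above 0 in both genotypes.

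The gene lies on chromosome 9, 123150946 to 123157432 on the plus strand of GRCm38, with 3 exons and no other annotated gene across it on either strand. Fragment numbers are not in the table, but the steps between low values of single-exon genes gave an estimated depth of 19600000 to 21100000 fragments in FNcKO and 26200000 to 31700000 in WT libraries. At these depths the Clec3b values correspond to about 201, 269 and 265 fragments in FNcKO replicates 1 to 3, against about 21.8 and 15.6 in WT replicates 1 and 3. The WT level therefore rests on few fragments.

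**Figure D1:**
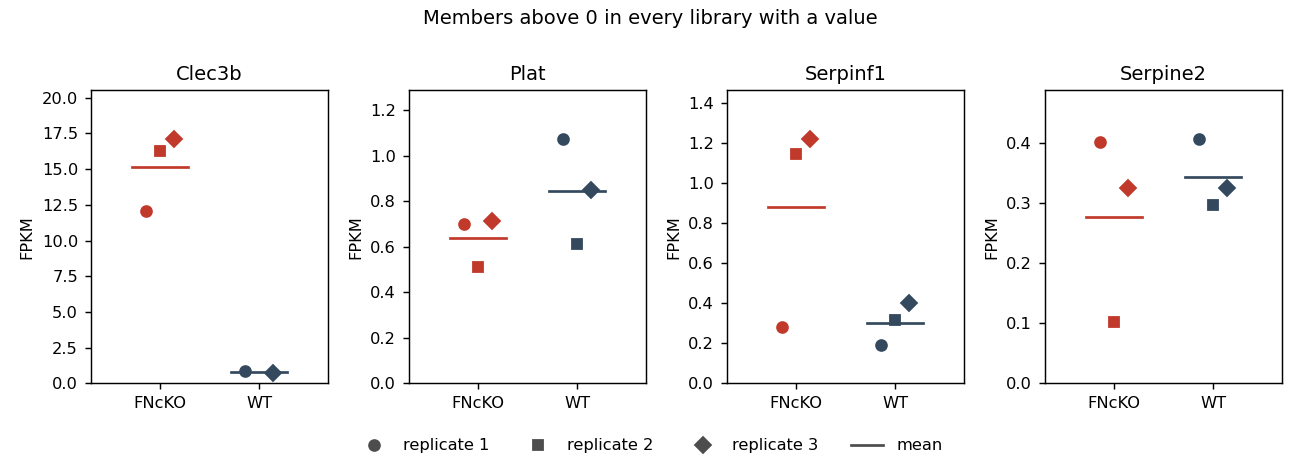
FPKM (vertical axis, from 0, a scale of its own in each panel) of the 4 members above 0 in every library with a value, in FNcKO and WT lenses; points are libraries and lines are means. Clec3b lies between 12.04 and 17.1 FPKM in FNcKO and below 0.9 FPKM in the 2 WT libraries with a value, while the genotypes overlap in Plat, Serpinf1 and Serpine2.

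Clec3a, the lectin closest to tetranectin in name and known from cartilage, showed nothing of this size. It was listed at 0.0335 FPKM in FNcKO replicate 1 and at 0 in the other 5 libraries. Clec3a lies on chromosome 8, 114418034 to 114428133, on the plus strand.

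Of the activators, Plat (tissue-type plasminogen activator; chromosome 8, 22757722 to 22782848, plus strand) was present at a low level in every library. It stood at 0.700, 0.511 and 0.712 FPKM in FNcKO replicates 1 to 3, against 1.07, 0.614 and 0.850 FPKM in WT replicates 1 to 3. The genotypes overlapped, since WT replicate 2 lay below FNcKO replicates 1 and 3. The means were 0.641 ± 0.113 FPKM in FNcKO and 0.846 ± 0.230 FPKM in WT (SD, n = 3 each), a difference of -0.16 in log2(FPKM + 1). This scale makes changes of low genes look smaller than they are. With a pseudocount of 0.1 the difference was -0.33. It was 0.01 when every library was given the same FPKM total without crystallins, which moved the median of all tested genes from -0.04 to 0.29. About 24.8 to 34.3 fragments stood behind the FNcKO values and 40.4 to 79.5 behind the WT values.

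Plau (urokinase-type plasminogen activator; chromosome 14, 20836662 to 20843388, plus strand) was listed at 0.0451 FPKM in FNcKO replicate 1, about 2.04 fragments, and at 0 in the other 5 libraries. Its receptor Plaur (chromosome 7, 24460937 to 24475968, plus strand) was listed at 0 in all 6 libraries. Plasminogen (Plg; chromosome 17, 12378609 to 12419384, plus strand), which the liver supplies to plasma, was also listed at 0 in all 6. Taking 3 fragments per library as the limit that a count of 0 allows, the estimated depths leave room for at most 0.0369 to 0.0599 FPKM of Plg. The same limit is 0.0719 to 0.117 FPKM for Plaur, and 0.044 to 0.0715 FPKM for Plau where it was listed at 0. These limits cover counting error only. All 12 housekeeping genes looked up were above 0 in every library with a value.

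Among the serpins, Serpine2 (protease nexin, an inhibitor of thrombin, urokinase and tissue-type activator; chromosome 1, 79794317 to 79858665, minus strand) was low throughout. Its level was 0.402, 0.102 and 0.325 FPKM in FNcKO replicates 1 to 3, against 0.407, 0.297 and 0.326 FPKM in WT replicates 1 to 3. FNcKO replicate 2 was the lowest library, and the others of both genotypes lay close together. The means were 0.276 ± 0.156 FPKM in FNcKO and 0.343 ± 0.0569 FPKM in WT (SD, n = 3 each). The log2 difference was -0.08, and 0.02 without FNcKO replicate 2.

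Serpinf1 encodes PEDF, a secreted serpin without protease inhibitor activity that is known for restraining vessel growth in the eye (chromosome 11, 75410029 to 75422623, minus strand). It stood at 0.283, 1.15 and 1.22 FPKM in FNcKO replicates 1 to 3, against 0.191, 0.319 and 0.401 FPKM in WT replicates 1 to 3. FNcKO replicates 2 and 3 lay above every WT library, while FNcKO replicate 1 lay within the WT range. The means were 0.883 ± 0.521 FPKM in FNcKO and 0.304 ± 0.106 FPKM in WT (SD, n = 3 each), 2.91-fold higher in FNcKO. The log2 difference was 0.49 over all libraries, 0.75 without FNcKO replicate 1 and 0.35 without FNcKO replicate 3. About 9.75, 39.1 and 39.0 fragments stood behind the FNcKO values, against 9.92, 14.8 and 17.2 behind the WT values.

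Serpinf2 encodes antiplasmin, the fast plasma inhibitor of plasmin, and lies next to Serpinf1 on the same strand (chromosome 11, 75431736 to 75439501). It was listed at 0 in all 6 libraries, where 3 fragments would be 0.0473 to 0.0768 FPKM.

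Ordered by mean level per length, the FNcKO lenses ran Clec3b, Serpinf1, Plat, Serpine2, Plau and Clec3a, with Plaur, Plg and Serpinf2 listed at 0. Serpinf1 and Plat overlapped in their FNcKO ranges, 0.283 to 1.22 FPKM and 0.511 to 0.712 FPKM, whereas Plat and Serpine2 did not. The WT lenses ran Plat, Clec3b, Serpine2 and Serpinf1, with the other 5 members listed at 0. Plat and Clec3b overlapped there, as did Serpine2 and Serpinf1. Clec3b made up 89.2%, 90.2% and 88.3% of the summed FPKM of the 9 members in FNcKO replicates 1 to 3, against 33.9% and 32.2% in WT replicates 1 and 3.

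Genotypes were compared over the whole table by limma on log2(FPKM + 1) for the 10149 genes averaging 1 FPKM or more, with Benjamini-Hochberg adjustment and a threshold of 0.05. Of these, 192 (1.89%) passed. Only 1 of the 9 members, Clec3b, reached the filter of 1 FPKM, and only through FNcKO, since its WT mean was 0.804 FPKM. It passed. With the filter at 0.1 FPKM, 4 members were tested and 1, Clec3b, passed, against 1.01% of 17545 genes. Nothing is read from these counts, since the difference of Clec3b was known when the group was assembled. Without WT replicate 1 or 3, Clec3b has 1 WT value, and its log2 difference was 3.19 or 3.10.

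The genes nearest in profile to Clec3b over the 5 libraries in which it has a value were Lims2, Defb9 (a beta-defensin), Nes (the intermediate filament protein nestin), Scg2 and Fndc1 (a protein with fibronectin type III domains). Likeness was measured as the Euclidean distance between centred log2(FPKM + 1) profiles, which ran from 1.38 for Lims2 to 1.79 for Fndc1. Lims2, a LIM-domain adaptor of integrin adhesions, averaged 4.62 ± 1.29 FPKM in FNcKO and 0.286 ± 0.212 FPKM in WT (SD, n = 3 each). Scg2, a secretory granule protein, averaged 8.25 ± 5.67 FPKM in FNcKO and 0.934 ± 0.456 FPKM in WT (SD, n = 3 each). The folds of the 5, over 3 WT libraries, ran from 5.99 for Nes to 17.7 for Fndc1, so the distances hold differences in amount. The 18.8 of Clec3b is over WT replicates 1 and 3 and is not ranked against them. In these 2 libraries Lims2 stood at 0.0414 and 0.399 FPKM, and Defb9 at 0 in both. The profile of Clec3b divides the libraries as genotype and strain background both do, and no test applies.

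The rows around Clec3b were examined within 1 Mb on either side, a window chosen after its values were seen. Of 49 rows there, 15 reached the filter, and 0 of these 15 passed limma's test (1.89% of all tested genes did), with 3 at an unadjusted p under 0.05, against 18.1% of all tested genes. Their log2 changes lay between -0.52 and 0.27, with a median of -0.09, against -0.04 over all tested genes. Exosc7, an exosome subunit ending 14.8 kb before Clec3b, stood at 3.35, 1.60 and 1.89 FPKM in FNcKO replicates 1 to 3, against 3.98 and 1.91 FPKM in WT replicates 1 and 3. On the other side Cdcp1, a membrane protein that serine proteases are known to cleave, begins 13.4 kb after Clec3b. Cdcp1 lay below the filter and stood at 0.451, 0.583 and 0.567 FPKM in FNcKO replicates 1 to 3, against 0.203 and 0.183 FPKM in WT replicates 1 and 3. The Cdcp1 genotypes did not overlap, but with the filter at 0.1 FPKM it missed limma's threshold (log2 change 0.36, SE 0.08, adjusted p = 0.147). Sacm1l, Exosc7 and Cdcp1 were named after their values were seen, and none of the rows around Clec3b has a value in WT replicate 2.

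**Figure D2:**
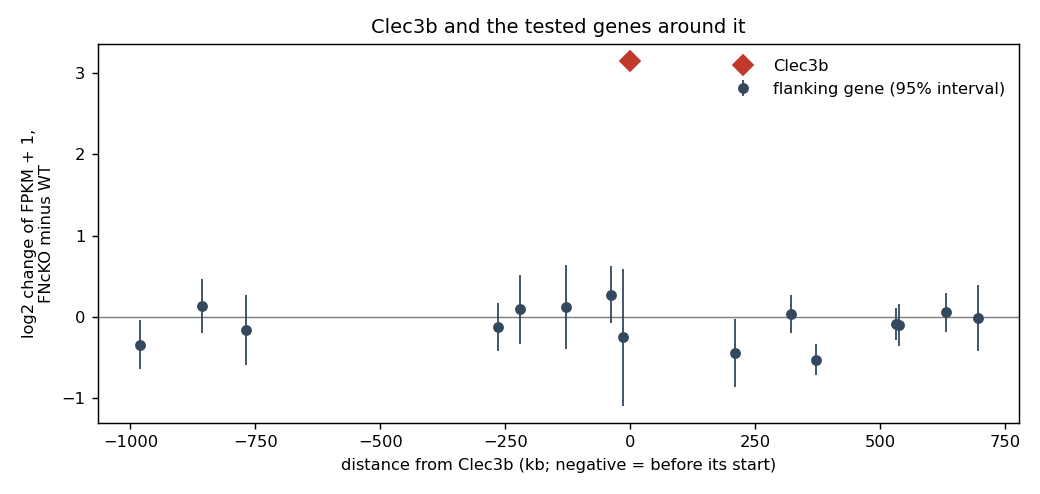
Log2 change of FPKM + 1 (FNcKO minus WT, vertical axis) against distance from Clec3b in kb for the 15 flanking genes averaging 1 FPKM or more, with 95% intervals from limma, and for Clec3b itself without an interval. The flanking genes lie between -0.52 and 0.27, and Clec3b at 3.15.

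Outside the 9 members, 60 other genes of plasminogen activation, tetranectin's lectin relatives, secreted serpins and PEDF receptors were listed by name, and 19 reached the filter. Of these 19, 1 rose and 0 fell in FNcKO by limma adjusted over all genes, against 1.89% called among all tested genes. At an unadjusted p under 0.05 there were 7 of 19, against 18.1% of all tested genes, and 7 of 19 had genotypes that did not overlap, against 25.6%. The median log2 change of the 19 was -0.02, against -0.04 over all tested genes.

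The gene that rose was Colec12, a membrane collectin and scavenger receptor listed with the lectin relatives of tetranectin. It stood at 5.30, 4.99 and 5.68 FPKM in FNcKO replicates 1 to 3, against 2.47, 2.17 and 2.73 FPKM in WT replicates 1 to 3. Every FNcKO library lay above every WT library. Colec12 averaged 5.32 ± 0.344 FPKM in FNcKO and 2.46 ± 0.279 FPKM in WT (SD, n = 3 each), 2.17-fold higher in FNcKO (log2 change 0.87, SE 0.08, limma adjusted p = 0.0122). Over the alternatives tried its adjusted p ran from 0.0105 to 0.0893, and it missed the threshold without WT replicate 1 (0.0893), without WT replicate 2 (0.0558) and without FNcKO replicate 3 (0.0599).

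The other lectins did not pass. Of 12 listed, 3 were tested, and besides Colec12 these were Clec2d, a lectin ligand of natural killer cell receptors (log2 change -0.35, adjusted p = 0.273), and Cd302 (log2 change -0.30, adjusted p = 0.309). Clec11a, a secreted growth factor of bone marrow, stood below the filter at 0.303 ± 0.0577 FPKM in FNcKO and 0.449 ± 0.0653 FPKM in WT (SD, n = 3 each). Clec14a, an endothelial lectin receptor named after its values were seen, stood at 0.422, 0.171 and 0.273 FPKM in FNcKO replicates 1 to 3, against 0.0710, 0.0317 and 0.0512 FPKM in WT replicates 1 to 3. With the filter at 0.1 FPKM the limma adjusted p of Clec14a was 0.201.

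Of the 9 further inhibitors of plasmin and of its activators, 1 was tested and it did not pass. This was Serping1, the C1 inhibitor, which also acts on kallikrein and contact factors. It stood at 2.71, 2.40 and 2.86 FPKM in FNcKO replicates 1 to 3, against 3.69, 3.68 and 5.03 FPKM in WT replicates 1 to 3, with no overlap. Its log2 change was -0.48 (SE 0.12, 95% interval -0.78 to -0.19, limma adjusted p = 0.127). Serpinb2, an inhibitor of urokinase, and Serpina5 were listed at 0 in all 6 libraries.

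**Figure D3:**
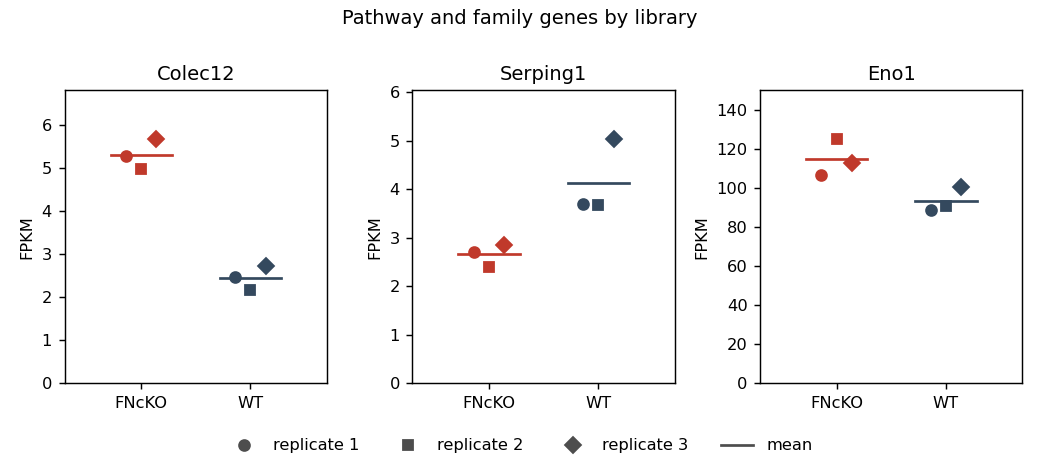
FPKM (vertical axis, from 0, a scale of its own in each panel) of Colec12, Serping1 and Eno1 in FNcKO and WT lenses; points are libraries and lines are means. The genotypes do not overlap in any of the 3, but of these Colec12 alone passed limma's test.

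Of 7 plasminogen receptors listed, 5 were tested and 0 passed by limma, with 1 at an unadjusted p under 0.05. Eno1, a glycolytic enzyme that also binds plasminogen at cell surfaces, stood at 106.8, 125.3 and 113.2 FPKM in FNcKO replicates 1 to 3, against 88.8, 90.9 and 100.7 FPKM in WT replicates 1 to 3. The genotypes did not overlap, and the log2 change was 0.30 (SE 0.09, 95% interval 0.08 to 0.51, adjusted p = 0.175). Fragments of near-identical copies of Eno1 may be split by the counting, so its value is uncertain. S100a10, the annexin partner that anchors plasminogen and tissue-type activator, stood at 74.5, 96.2 and 76.5 FPKM in FNcKO replicates 1 to 3, against 69.7, 74.5 and 75.5 FPKM in WT replicates 1 to 3, with overlap (adjusted p = 0.521).

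Of 6 endocytic receptors and partners that clear activator and inhibitor complexes, 4 were tested and 0 passed by limma, while 3 lay under 0.05 unadjusted (18.1% over all tested genes). Of the 4, 2 had a log2 change above 0 and 2 below. Igf2r, which binds the urokinase receptor and plasminogen, averaged 4.78 ± 0.375 FPKM in FNcKO and 3.77 ± 0.254 FPKM in WT (SD, n = 3 each; log2 change 0.28, adjusted p = 0.1495). Vldlr averaged 2.40 ± 0.168 FPKM in FNcKO and 1.85 ± 0.236 FPKM in WT (SD, n = 3 each; log2 change 0.26, adjusted p = 0.214). Of 12 contact factors and plasmin substrates, 0 reached the filter and 5 were listed at 0 in every library, among them all 3 fibrinogen chains.

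Of 9 secreted serpins, 2 were tested and 0 passed by limma, also unadjusted. Serpinh1, the collagen chaperone, had a log2 change of -0.15 (95% interval -0.35 to 0.06, adjusted p = 0.424). With the same FPKM total without crystallins it was 0.26, where the median of all tested genes was 0.29. Serpind1, heparin cofactor, had a log2 change of -0.02 (95% interval -0.40 to 0.36, adjusted p = 0.965). Of 5 PEDF receptors, 4 were tested and 0 passed by limma, also unadjusted, with Pnpla2, a lipase, at a log2 change of -0.09 (adjusted p = 0.540) and Lrp6 at 0.06 (adjusted p = 0.728).

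**Figure D4:**
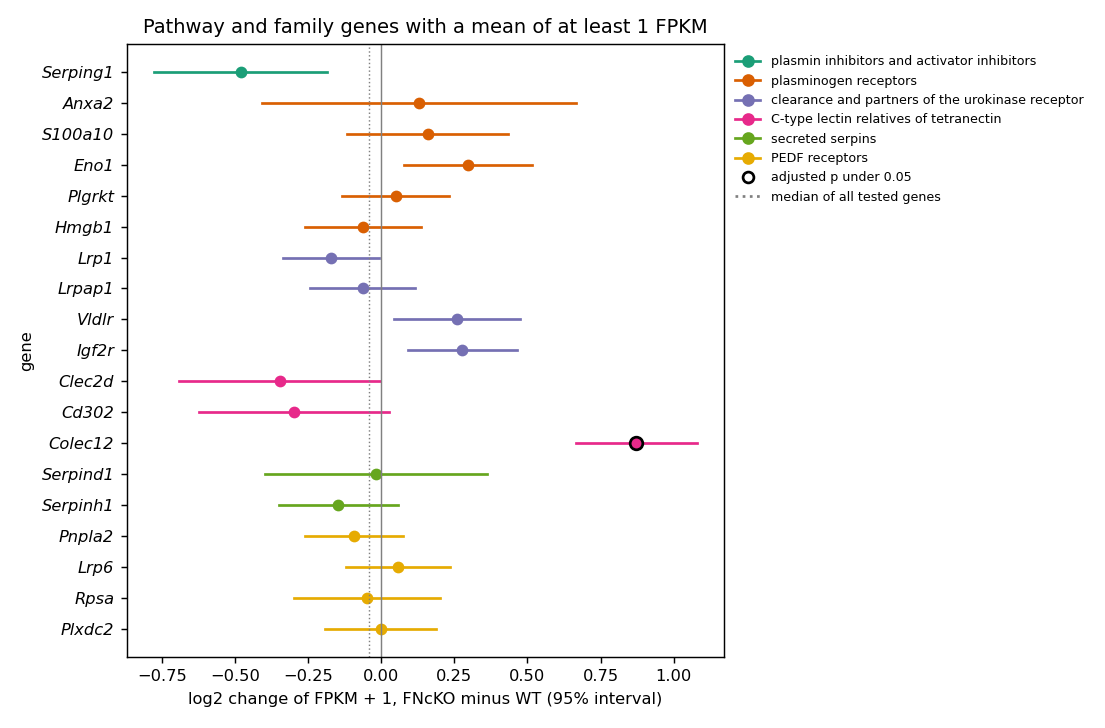
Log2 change of FPKM + 1 (FNcKO minus WT, horizontal axis) with 95% intervals from limma for the 19 listed genes that reached the filter, coloured by list; the dotted line is the median of all tested genes at -0.04. Colec12, ringed, is the gene past the adjusted threshold.

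The libraries carried lens genes at high levels. The alpha-crystallin Cryaa averaged 45100 ± 1030 FPKM in FNcKO and 39128 ± 1507 FPKM in WT, the beta-crystallin Cryba1 32133 ± 1131 FPKM in FNcKO and 27409 ± 1131 FPKM in WT, and Igfbp7 of the epithelium 463.2 ± 48.1 FPKM in FNcKO and 468.4 ± 21.4 FPKM in WT (SD, n = 3 each). Fiber markers summed to 84817 to 89663 FPKM in FNcKO and 74460 to 79902 FPKM in WT, without overlap, over the 8 of 9 with a value in every library. Of 9 fiber and 7 epithelial markers, all of which were tested, Slc7a5 and Epha2 rose and 0 fell by limma. The share called among all tested genes was 1.89%, the background for each marker list here and below. Epha2 missed the threshold with any library left out (adjusted p from 0.087 to 0.164), and Slc7a5 with any but FNcKO replicate 1 (0.0564 to 0.0972). Fn1 itself stood at 0.128, 0.0482 and 0.0942 FPKM in FNcKO replicates 1 to 3, against 0.135, 0.188 and 0.253 FPKM in WT replicates 1 to 3, a value of the whole gene that does not show whether the deleted part is present.

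Some markers of tissue beside the lens had summed levels that, like Clec3b, were higher in FNcKO without overlap. The ciliary body and iris markers summed to 60.4 to 78.9 FPKM in FNcKO and 26.7 to 37.4 FPKM in WT, over the 8 of 10 with a value in every library, and without the most abundant, Optc, to 28.4 to 29.4 FPKM in FNcKO and 12.57 to 16.5 FPKM in WT. None of the 10 was at 0 in every library, 6 of the 7 tested had a log2 change above 0, and Aqp1, a water channel, rose (log2 change 1.39, SE 0.21, limma adjusted p = 0.0432), while Optc stood at adjusted p = 0.0682. Aqp1 missed the threshold with any library but FNcKO replicate 1 left out (adjusted p from 0.116 to 0.155). It was also the largest part of the sum without Optc, at 11.1 to 18.4 FPKM in FNcKO and 4.19 to 6.14 FPKM in WT. Whether its RNA came from tissue beside the lens or from the lens itself was not tested. The other markers in that sum were mixed. Col9a1 and Zic2 were higher in FNcKO without overlap, Aqp4 was lower without overlap, and Wfdc1, Col9a2 and Otx1 overlapped. Fibroblast markers summed to 27.18 to 34.0 FPKM in FNcKO and 21.6 to 27.14 FPKM in WT, so that the genotypes nearly touched. Without Fbln1 the order was the opposite, at 11.4 to 12.4 FPKM in FNcKO and 13.4 to 14.6 FPKM in WT. Of these 10, 4 were tested, Pdgfrb fell (limma adjusted p = 0.00572, and 0.178 with the same FPKM total without crystallins), and Fbln1 and Pdgfra had adjusted p = 0.164 and 0.644. Col1a2, a collagen chain named after its values were seen, was 1.99-fold higher in FNcKO without overlap but did not pass (log2 change 0.60, adjusted p = 0.0636), and Kera was at 0 in every library. Col1a1, Col3a1, Dcn, Lum and Dpt averaged at most 0.136 FPKM in either genotype. The fibroblast sums were therefore nearly all Fbln1, Pdgfra, Pdgfrb and Col1a2, and most of the listed markers were nearly absent. Endothelial markers summed to 1.42 to 2.13 FPKM in FNcKO and 1.23 to 1.41 FPKM in WT, a narrow gap carried by Egfl7, without which the sums overlapped, at 0.277 to 0.596 FPKM in FNcKO and 0.230 to 0.373 FPKM in WT. Of these markers Cdh5 and Emcn, 2 of 7, were at 0 in every library. The part of these marker groups in the levels of Clec3b and Serpinf1 was not tested, and in bulk lenses fewer cells of a type and less RNA per cell cannot be told apart.

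Over whole lists, pigment cell, photoreceptor, leukocyte and blood marker sums were lower in FNcKO or overlapped between the genotypes. Pigment cell markers summed to 6.67 to 8.46 FPKM in FNcKO and 11.6 to 19.0 FPKM in WT, and of 8 none was at 0 in every library. Without Ttr, the most abundant, the sums were 3.32 to 4.19 FPKM in FNcKO and 5.04 to 6.89 FPKM in WT. Tyrp1 and Tyr did not share this direction. They averaged 0.712 and 0.226 FPKM in FNcKO and 0.533 and 0.210 FPKM in WT, with overlap, while the other markers had lower means in FNcKO. Of the 8, 2 were tested and 0 passed by limma, with Ttr at adjusted p = 0.0887 and Oca2 at 0.0798. Both had an unadjusted p under 0.05, as had 18.1% of all tested genes. Mlana, named after its values were seen, was listed at 0 in all 3 FNcKO libraries, against 0.286 to 0.476 FPKM in WT, and passed limma's test with the filter at 0.1 FPKM (adjusted p = 0.0448). Photoreceptor markers summed to 37.3 to 38.6 FPKM in FNcKO, within the 26.4 to 72.7 FPKM of WT. That overlap rests on WT replicate 2, at 26.4 FPKM, while WT replicates 1 and 3, those with a value of Clec3b, stood at 60.5 and 72.7 FPKM, above every FNcKO library. Of 9 tested markers Gnat1 fell (limma adjusted p = 0.0215; no value in WT replicate 2, and 0.0662 to 0.105 with any other library left out). Macrophage and leukocyte markers summed to 0.642 to 1.82 FPKM in FNcKO and 1.49 to 2.83 FPKM in WT, and 0 of 7 reached the filter. Blood markers summed to 7.38 to 9.73 FPKM in FNcKO and 6.78 to 8.16 FPKM in WT, nearly all of it Bpgm (limma adjusted p = 0.947). The overlap rests on Bpgm. Without it the other 4 summed to 0.624 to 1.06 FPKM in FNcKO and 0 to 0.486 FPKM in WT, low values that were higher in FNcKO without overlap. Alas2, outside the sums for want of WT replicate 2, went the other way, averaging 0.108 FPKM in FNcKO and 0.334 FPKM in WT.

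**Figure D5:**
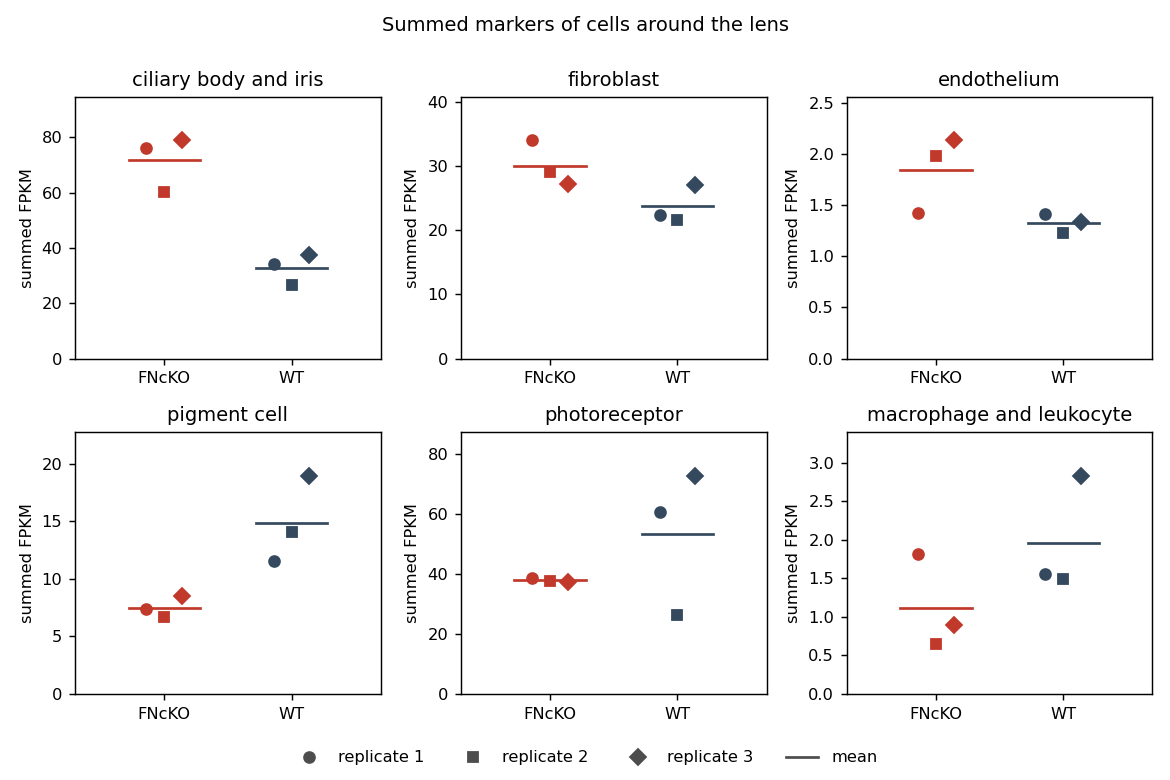
Summed FPKM (vertical axis, from 0, a scale of its own in each panel) of 6 marker lists in FNcKO and WT lenses, over markers with a value in every library; points are libraries and lines are means. Ciliary body and iris markers lie at 60.4 to 78.9 FPKM in FNcKO, above the 26.7 to 37.4 FPKM of WT, and pigment cell markers lie lower in FNcKO.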

How the data were processed

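Lens RNA was sequenced in 6 libraries, grouped by sample title into FNcKO and WT (3 each), which the labels call biological replicates. The FPKM values were computed and deposited by the authors as 1 table. The submitters' processing notes name cutadapt 1.12, FastQC, Cuffdiff 2.2.1, TopHat2 2.1.0, and the builds GRCm38.p5 and mm10. Whether strand was used in counting is not given in the sources used here, nor are the annotation and any further scaling, so reads of a gene and of an antisense partner cannot be told apart.

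From the deposited FPKM, log2(FPKM + 1) of the 10149 genes averaging 1 FPKM or more was compared by limma 3.58.1 in R 4.3.3 (trend, two-sided, Benjamini-Hochberg adjustment over all of them). Genes without WT replicate 2 were fitted on 5 libraries, and 1 unreadable value was treated as missing. The comparison was also tested on simulated data. Members and lists were chosen with earlier results of these data known. Named genes are all members, listed genes past the test or else the 2 with the smallest p in each list, of each marker list those past the test and the 2 most abundant tested (not all repeated here), and the 5 profiles nearest to Clec3b. All other genes were named after their values were seen. Some listed genes are not reported here. Gene structures are from GENCODE M21 on GRCm38. The table's start positions were shifted by 1 base to be 1-based.

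Depth was estimated from single-exon genes of 400 to 6000 nt, by searching for the depth and length offset at which low values came closest to whole fragments. Between 63.4% and 73.4% of values then lay within 0.15 of a whole number. Fragment numbers for members use 1 annotated transcript and are approximate.

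Alternatives were a pseudocount of 0.1, a filter of 0.1 FPKM or none, 3 other scalings, the replicate number as a block, and each library left out.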

Additional observations from a re-analysis of the deposited data

How the results depend on the processing

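The number of genes called between FNcKO and WT was 192 as reported. It was 101 without a filter on low values, 86 with the same FPKM total without crystallins, where the median over all tested genes was 0.29, and 37 to 117 with 1 library left out. The share of calls that were higher in FNcKO was 45.3% as deposited, 56% with median-ratio scaling, 60.4% after quantile normalization and 76.7% with that same total. Colec12 was the 1 pathway gene called, and this count was 0 to 1 with 1 library left out. The replicate number used as a block gave 14 calls over all genes and 0 among pathway genes, and Clec3b also missed the threshold. Same-numbered libraries did not deviate together (correlations -0.03, -0.05 and -0.05, against -0.02 to 0.07 for the other pairs). No pairing by number was seen, but with 3 libraries per genotype these values cannot exclude one. The log2 difference of Clec3b lay between 3.06 and 4.06 over the 13 alternatives, the highest with a pseudocount of 0.1. Genes that did not pass and changed sign were Pnpla2 (0.24) and Serpinh1 (0.26) with the same total without crystallins, and Serpind1 with that total (0.33), median-ratio scaling (0.02), quantile normalization (0.01) and without WT replicate 2 (0.01), FNcKO replicate 2 (0.05) or FNcKO replicate 3 (0.09), its range with 1 library left out being -0.19 to 0.09. The causes were not tested. Depth limits Plau, Plaur, Plg, Serpinf2 and Clec3a, of which at most a few fragments were seen.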
